A study of Mus musculus with 12 samples.

Results

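The proteins of the cytoplasmic ribosome were followed in mouse heart through 35 genes of the 8251 named on the array, read by 49 of its 12488 probe sets. A probe set is a group of short oligonucleotides on the array that together report the transcript of a gene. Members were chosen by name alone: the probe set has exactly 1 gene symbol, and that symbol is Rpl or Rps with a number, Rpsa or Rplp0. Kinases of the Rps6k family and pseudogenes were left out. The large subunit was represented by 20 probe sets of 15 genes and the small subunit by 24 probe sets of 16 genes. Another 5 probe sets of 4 genes (Rpl39l, Rps27l, Rps4l and Rpl7l1) name paralogs or relatives of a core protein, and they entered neither subunit. The selection is not the whole ribosome, because 39 further probe sets that carry several symbols name a ribosomal protein among them, and 33 genes were named on those alone.

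Cardiac muscle came from male NMRI mice, an outbred stock, given as 10 to 15 weeks old for every group alike. Diabetic mice had received 1 injection of streptozotocin (180 mg/kg), a toxin of the insulin-producing beta cells, which models type 1 diabetes, and healthy mice had received buffer. Training was treadmill running, 5 days a week and 1 h each day, at 21 m/min up an incline of 2.5 degrees. Hearts were taken 24 h after the last run, with sedentary mice killed at the same time. The 4 conditions (healthy or diabetic, sedentary or trained) were each measured after 1, 3 and 5 weeks, with 1 array per condition and week. Each of the 12 arrays held the pooled RNA of 5 mice, so the p-values below rest on spread between pools and not between animals. This spread is what condition and week left over, and all 12 arrays share its estimate. A condition effect is thus judged by its variation between weeks, and a week effect by its variation between conditions. The comparisons ask whether diabetes, training, their combination or time went with a change in the transcripts of the translation machinery.

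A ribosome reads messenger RNA on its small subunit and joins amino acids on its large subunit, and each subunit is a scaffold of ribosomal RNA covered by single copies of many proteins. Cells make these proteins in matched amounts, and most of their messages share a run of pyrimidines at the 5′ end (the 5′ terminal oligopyrimidine tract), through which growth signals acting by way of the TOR kinase control their translation. In the heart, ribosome production is known to rise when the muscle grows, and insulin is one of the signals that drive protein synthesis.

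The starts of 7 member genes are shown from 60 bases before to 30 bases from the transcription start that RefSeq gives for the assembly GRCm38.p6. Rps19, Rpl7a, Rps7, Rps3a1 and Rps28, the last by 1 of its 3 probe sets, are shown because they passed or came near the threshold in a comparison below. Rps3, which also came near, is not shown. Rps18 and Rps27 were picked because they carry a tract at the start, so the 7 are not a sample of the members. Capitals mark a run of at least 7 pyrimidines that begins with C, within 20 bases of the start.
Rps19, chr7:24884532-24884621, plus strand: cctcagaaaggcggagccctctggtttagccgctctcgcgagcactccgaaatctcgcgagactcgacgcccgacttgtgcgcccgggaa
Rps28, chr17:33824533-33824622, minus strand: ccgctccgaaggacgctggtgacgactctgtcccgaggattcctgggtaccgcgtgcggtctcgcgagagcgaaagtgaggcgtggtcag
Rpl7a, chr2:26910747-26910836, plus strand: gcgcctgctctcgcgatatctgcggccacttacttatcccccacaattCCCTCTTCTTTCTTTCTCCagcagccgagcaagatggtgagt
Rps18, chr17:33955636-33955725, minus strand: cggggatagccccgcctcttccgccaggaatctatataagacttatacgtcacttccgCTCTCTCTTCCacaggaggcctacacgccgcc
Rps27, chr3:90213619-90213708, minus strand: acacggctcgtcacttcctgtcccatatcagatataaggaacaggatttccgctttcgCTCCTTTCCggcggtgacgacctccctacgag
Rps7, chr12:28635924-28636013, minus strand: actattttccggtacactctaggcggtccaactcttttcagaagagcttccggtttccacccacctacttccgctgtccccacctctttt
Rps3a1, chr3:86142639-86142728, minus strand: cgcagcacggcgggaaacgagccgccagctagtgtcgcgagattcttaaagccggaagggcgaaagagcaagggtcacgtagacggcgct

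The tract was 19 bases long in Rpl7a, 11 in Rps18 and 9 in Rps27. No such run lay within 20 bases of the RefSeq start used for Rps19, Rps28, Rps7 and Rps3a1. The first listed start of each gene was used, and 7 member genes had several. Where transcription starts in the heart was not measured, so a missing run here does not show that the message lacks a tract. Runs of at least 7 pyrimidines farther from the start, as in the Rps7 sequence, were not marked. A RefSeq start sequence was found for 28 of the 35 member genes, and 12 of these (42.9%) held a tract of this kind against 18.6% of 27025 gene starts in all. Several tract lengths and distances were tried. With at least 5 pyrimidines the shares were 64.3% and 46.1%. The letters CCGGAA, the core bound by ETS-family factors, stood on either strand in 53.6% of the member windows of 300 bases (250 before the start and 50 after) and in 15.2% of all windows. GGGCGG, the core of the Sp1 box, stood in 57.1% against 35.9%, and TATAAA in 10.7% against 14.2%. On the reverse strand CCGGAA can touch the edge of a tract, and such overlaps were not counted apart. A match describes the sequence only.

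The signal of a probe set is a number on a linear scale that depends on its own oligonucleotides, so it describes that probe set and is not a level to be ranked between genes. The brightest were Rpl41, a peptide of the large subunit, at a median of 3640 over the 12 arrays, Rps24 at 2709, Rplp0, the base of the ribosomal stalk, at 1960, Rps18 at 1760 and Rps28 at 1483. The 5 genes of lowest mean signal were Rps15, Rps27l, Rpl39, Rps14 and Rps20, with medians between 2.85 and 7.85. Bacterial and yeast control probe sets, whose targets are absent from heart RNA, reached up to 13.8, so the medians of those 5 genes lay within the signal of targets that are not there. Of the 35 genes, 27 (12 of the large subunit, 13 of the small and 2 paralogs) had a geometric mean signal of at least 11.6, the 40th percentile of all probe sets, and were tested through 35 probe sets. The 8 that were not tested were Rpl32, Rpl35a, Rpl39, Rpl39l, Rps14, Rps15, Rps20 and Rps27l. A line at a geometric mean of 100, drawn after the values had been seen, separated 19 bright genes (9 large, 10 small) from 8 dimmer tested ones. Probe sets of other genes were called as bright if their geometric mean lay between 240 and 3737, the range of the 19 genes. Those under 240 were called dimmer.

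**Figure D1:**
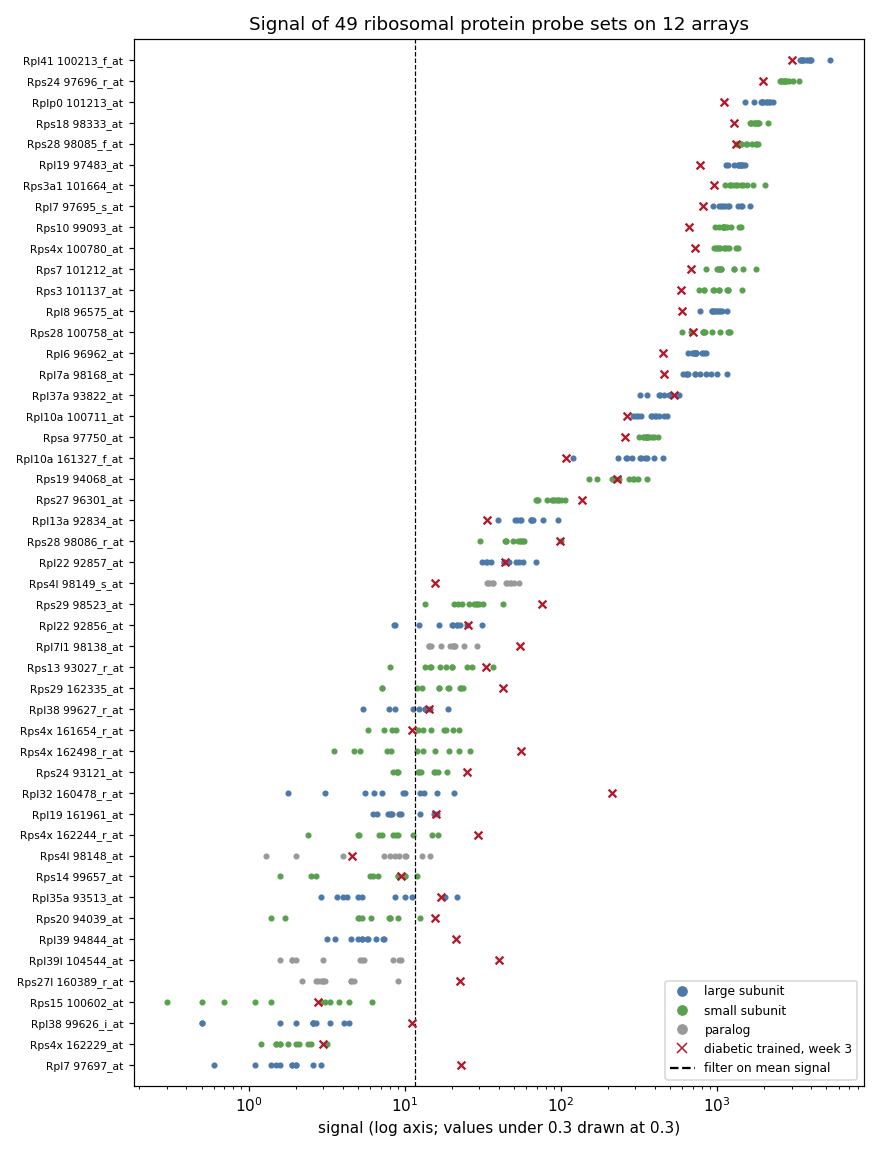
Signal of each of the 49 ribosomal protein probe sets (rows, gene and probe set, ordered by median) on the 12 arrays, on a log axis. Points are the 11 arrays other than the diabetic trained array of week 3, which is drawn as a red cross; the cross lies at the low end for most bright probe sets and at the high end for many dim ones.

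For 10 genes the array carries more than 1 member probe set, and in 8 of these genes the probe sets of a gene lay more than 1 log2 unit apart. Rps4x, a small subunit protein encoded on the X chromosome, had 5, of which 1 averaged 1085 and the other 4 between 2.03 and 16.1. Rpl19 (1313 and 10.3), Rpl7 (1189 and 3.53) and Rps24 (2707 and 13.6) likewise had 1 bright and 1 near-background probe set. Rps28 had 3, at 1531, 899.8 and 57.5, and Rpl22, Rpl38 and Rps4l had pairs that differed by 1.27, 1.39 and 2.37 on the log2 scale. The pairs of Rpl10a (368 and 289) and Rps29 (30.9 and 18.5) were closer, with Pearson correlations of log2 signal over the 12 arrays of 0.88 and 0.60. Identifiers ending in _f_at, _r_at, _s_at or _i_at, 15 of the 49, mark probe sets whose oligonucleotides can match related sequences or break a design rule, and ribosomal protein genes have many processed copies in the genome. The probe set of highest mean signal stands for a gene in all medians and counts of genes.

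One array stood apart. The diabetic trained array of week 3 had a median signal of 25.4 over all probe sets against 16.6 to 20.4 on the other 11, and its mean correlation with the others was 0.785 against 0.900 to 0.931. It had a scan day and a chip lot of its own, and a comment of the experimenters says that this was a repeat labelling of RNA whose earlier array had shown a high background. Week 5 lies with 1 chip lot and 1 scan day and each condition with 1 fluidics module, so neither can be told apart from these. The label of heart was borne out by 11 cardiomyocyte markers, all tested, whose summed signal was 30975 to 37789 in healthy and 27388 to 38310 in diabetic hearts. Markers of lymphocytes were near background, with 3 of 9 tested and sums of 58.2 to 117 on 11 arrays and 222 on the diabetic trained array of week 3. Adipocyte markers summed to 243 to 398 in healthy and 374 to 537 in diabetic hearts. Lung markers (3 of 5 tested) summed to 45.3 to 252 in healthy and 39.4 to 90.4 in diabetic hearts. Skeletal muscle markers (6 of 10 tested) summed to 1206 to 1738 and 698 to 1673. In pooled tissue, fewer cells of a type and less RNA per cell cannot be told apart.

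Diabetes changed no ribosomal protein past the threshold over both training states, and the one that came nearest was Rps19. Rps19 is a small subunit protein needed to mature the RNA of that subunit, and mutations in the human gene cause Diamond-Blackfan anaemia. Its signal in healthy sedentary hearts was 170, 150 and 221 at weeks 1, 3 and 5, and in healthy trained hearts 216, 212 and 237. In diabetic sedentary hearts it was 272, 312 and 290, and in diabetic trained hearts 296, 229 and 358. Every diabetic array was above its healthy partner of the same week and training state, and the groups overlapped at 1 point, where the diabetic trained array of week 3 fell below the healthy trained one of week 5. The means were 293 ± 42.6 (SD, n = 6) and 201 ± 33.3 (n = 6), a log2 difference of 0.55 (SE 0.11, 1.46-fold, limma adjusted p = 0.0545). Without the diabetic trained array of week 3 the difference was 0.61 (SE 0.10, adjusted p = 0.0131) and passed.

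Across the group, 0 of 35 member probe sets passed for diabetes in limma, and 3 had an unadjusted p under 0.05, all higher. Of all 7453 probe sets tested, 0.765% passed and 11.8% had an unadjusted p under 0.05. Of the 27 genes, 18 lay higher and 9 lower in diabetic hearts, with a median log2 difference of 0.06 against -0.02 over all probe sets tested. Apart from Rps19, those 3 were Rps28 and Rps29, both small subunit proteins. Rps28 was read by its second probe set as 0.33 (SE 0.12, adjusted p = 0.320), with 1005 ± 214 against 794 ± 152 (n = 6 each). Its brightest probe set read 0.03 (SE 0.12), so the probe sets of Rps28 disagreed. The brightest is an _f_at probe set, a type that can match related sequences or break a design rule, and the second is a plain _at one. Rps29 showed 0.91 (SE 0.24, adjusted p = 0.126) on a dim probe set (23.9 ± 9.57 against 13.1 ± 5.99, n = 6 each) and 0.13 (SE 0.26) on its other one. The healthy signals of the dim probe set, 7.2 to 22.9 with a median of 12.4, lay in part within the control signal of up to 13.8.

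**Figure D2:**
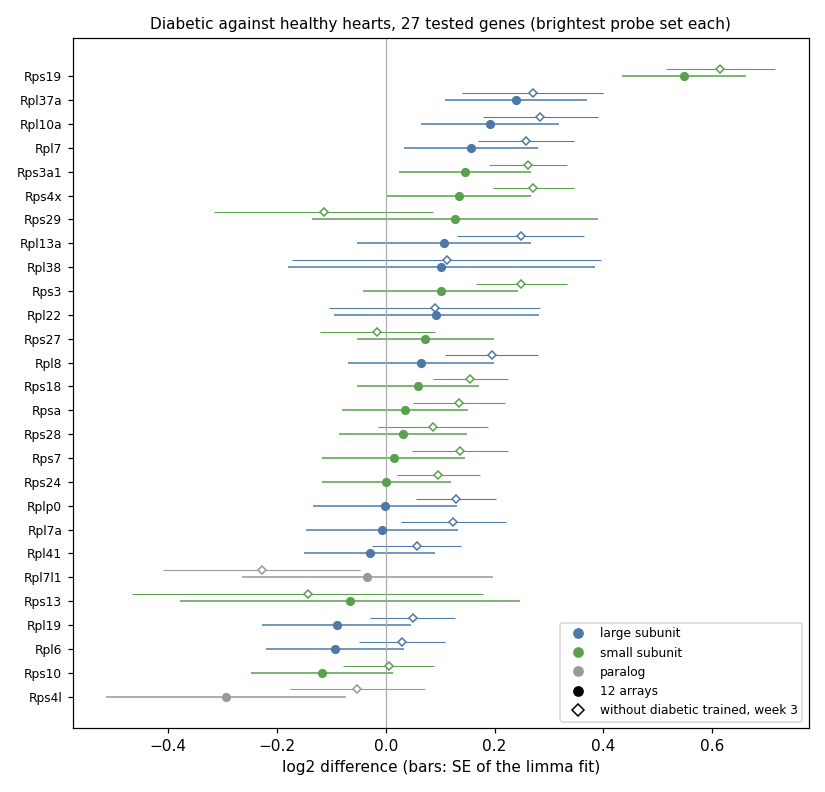
Log2 difference of diabetic against healthy hearts for the 27 tested genes, with the SE of the fit, from all 12 arrays (filled) and without the diabetic trained array of week 3 (open). Rps19 stands at 0.55 and 0.61; most other genes lie within 0.3 of 0, and most open symbols lie to the right of the filled ones.

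The median rested in part on the diabetic trained array of week 3. Without it 22 of 27 genes lay higher in diabetic hearts, with a median of 0.12 against -0.02 over all probe sets tested, and 12 of 12 large subunit genes lay higher (median 0.13), where 7 had with 12 arrays. Of the 13 small subunit genes 10 lay higher, where 11 had. Rps29, by its brighter probe set, went from 0.13 to -0.11 and Rps27 from 0.07 to -0.02, and Rps13 from -0.07 to -0.14. Rps19 and the second Rps28 probe set (0.44, SE 0.09, adjusted p = 0.0298) then passed, 2 of 34 member probe sets, beside 2.07% of all. The genes of next smallest p in the fit of 12 arrays were Rpl37a at 0.24 (SE 0.13) among those higher, and Rps4l at -0.29 (SE 0.22), the third Rps28 probe set at -0.14 (SE 0.21), Rps10 at -0.12 (SE 0.13) and Rpl6 at -0.09 (SE 0.13) among those lower, with adjusted p of 0.541 or more. Without the array Rps10 and Rpl6 read 0.01 and 0.03, so their sign turned without it.

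The 2 training states were then taken apart. In sedentary hearts, 22 of 27 genes lay higher in diabetic than in healthy mice, with a median log2 difference of 0.11 (large 0.21, small 0.11) against -0.01 over all probe sets. None of the 35 member probe sets passed in limma, 2 had an unadjusted p under 0.05, and 0.0537% of all probe sets passed. Rps19 differed by 0.71 (SE 0.16, 1.63-fold, adjusted p = 0.20), higher at 3 of 3 weeks, and the second Rps28 probe set by 0.50 (SE 0.18, adjusted p = 0.488), also at 3 of 3. Rpl7 and Rpl10a, both of the large subunit, followed at 0.37 (SE 0.17) and 0.32 (SE 0.18). These 6 sedentary arrays do not include the aberrant one, yet the shared estimate of the spread does. With that array left out of the fit the same Rps19 difference had an SE of 0.13 and an adjusted p of 0.0450 and passed, as did 0.805% of all probe sets.

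In trained hearts the diabetic and healthy mice differed by a median of -0.03 over the 27 genes (11 higher, 16 lower), and by 0.14 (22 higher, 5 lower) without the diabetic trained array of week 3. Over all probe sets tested these medians were -0.02 and -0.03. None of the member probe sets passed in limma, 2 had an unadjusted p under 0.05, and 0.0268% of all passed. Rps19 was higher at 3 of 3 weeks (0.39, SE 0.16, adjusted p = 0.451). The dim Rps29 probe set was higher at 3 of 3 as well (1.29, SE 0.35, adjusted p = 0.351). Its healthy trained signals at weeks 1 and 5, 12.9 and 7.2, lay within the control signal of up to 13.8, so the size of this difference is not reliable. The difference between the trained and the sedentary effect of Rps19 was -0.32 (SE 0.23, adjusted p = 0.859).

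**Figure D3:**
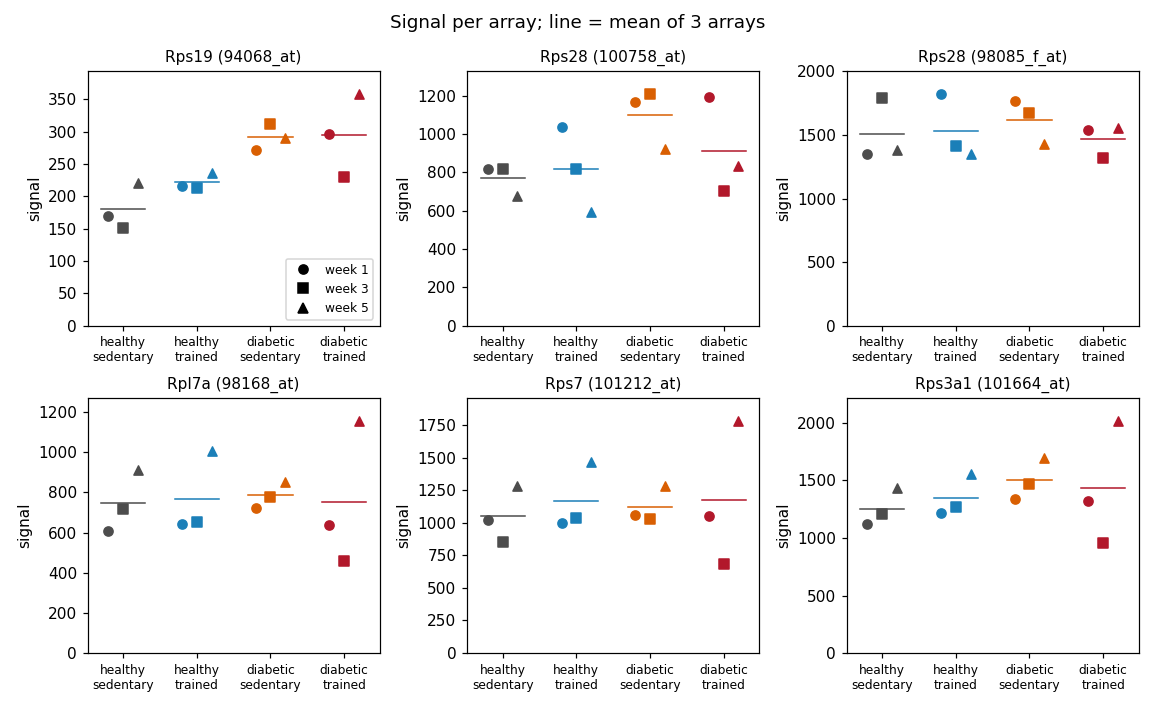
Signal per array (linear axis from 0) of 6 member probe sets in the 4 conditions, with weeks 1, 3 and 5 as circle, square and triangle and the mean of 3 arrays as a line. Rps19 lies higher in diabetic hearts; Rpl7a, Rps7 and Rps3a1 are highest at week 5 in every condition, and the second Rps28 probe set (upper middle panel) is lowest at week 5 in 3 of 4 conditions.

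Training showed no member past the threshold. Over both disease states the median log2 difference of the 27 genes was -0.01, with 11 higher and 16 lower, against -0.02 over all probe sets. In limma 0 of 35 member probe sets and 0% of all probe sets passed, and 1 member, the dim Rps13 probe set at 0.69 (SE 0.31), had an unadjusted p under 0.05. Its lowest signal, 8.1, lay within the control signal of up to 13.8. Rpl7l1, Rps24 on its dim probe set and Rps19 stood at 0.33 (SE 0.23), 0.36 (SE 0.28) and 0.16 (SE 0.11), and Rps4l, the second Rps28 probe set, Rps4x and Rpl8 at -0.40 (SE 0.22), -0.12 (SE 0.12), -0.12 (SE 0.13) and -0.09 (SE 0.13). Without the diabetic trained array of week 3 the median was 0.07, with 22 genes higher. Rpl7l1, the dim Rps24 probe set and Rps19 then stood at 0.14, 0.20 and 0.22, and Rps4l and the second Rps28 probe set at -0.16 and -0.02. The signs of Rps4x (0.01) and Rpl8 (0.04) turned.

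Among healthy mice, trained hearts had a median 0.07 above sedentary ones (22 of 27 genes higher, 11 of 12 of the large subunit). Over all probe sets tested the median was -0.003. In limma 0 member probe sets and 0% of all passed, with 0 members at an unadjusted p under 0.05. Rps19 led with 0.32 (SE 0.16), higher at 3 of 3 weeks. Among diabetic mice, trained hearts had a median 0.12 below sedentary ones in 12 arrays (5 of 27 genes higher) and 0.09 above them (19 of 27) without the aberrant array, so the direction rested on that array. Over all probe sets tested these medians were -0.04 and -0.03. Again 0 member probe sets and 0% of all passed in limma, with 2 members at an unadjusted p under 0.05. These were the paralogs Rpl7l1 (0.90, SE 0.33, adjusted p = 0.665) and Rps4l (-0.77, SE 0.31, adjusted p = 0.665). Without that array they stood at 0.51 and -0.29, and 0 members had an unadjusted p under 0.05 in limma. The diabetes by training interaction turned on it too: its median was -0.23 in 12 arrays and -0.02 without that array. Over all probe sets tested these medians were -0.06 and -0.02. In limma 0 member probe sets and 0% of all passed, and 1 member, Rpl7l1 at 1.13 (SE 0.46), had an unadjusted p under 0.05. Without that array Rpl7l1 stood at 0.75 and 0 members had such a p.

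On each array the median deviation of the 12 large subunit genes from their 12-array means was set against that of the 13 small subunit genes. The large subunit ranged from -0.59 on the diabetic trained array of week 3 and -0.20 on the healthy sedentary array of week 3 to 0.25 on the diabetic trained array of week 5. The small subunit ranged from -0.45 on the same diabetic trained array of week 3 and -0.11 on the healthy sedentary array of week 1 to 0.30 on the diabetic trained array of week 5. The subunits had opposite signs on the healthy trained array of week 1 (large 0.06, small -0.08) and on the healthy sedentary array of week 5 (large 0.11, small -0.03). The large minus small difference stayed between -0.15 and 0.15 on all 12 arrays. It was -0.15 on both the healthy sedentary and the diabetic trained array of week 3, and 0.15 and 0.14 on the healthy trained array of week 1 and the healthy sedentary array of week 5, so no condition kept 1 sign over its weeks other than diabetic sedentary (0.05, 0.01 and 0.05) and healthy trained (0.15, 0.03 and 0.00).

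Between conditions, the large minus small median was 0.02 for diabetes, -0.03 for training, 0.10 for diabetes in sedentary hearts, -0.05 for diabetes in trained hearts and -0.08 for the interaction. Within the 3 week-matched sedentary pairs it was 0.01, 0.13 and -0.09, so the 0.10 was within what the pools of different weeks showed. No test was made of these values, since they are scores over members.

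**Figure D4:**
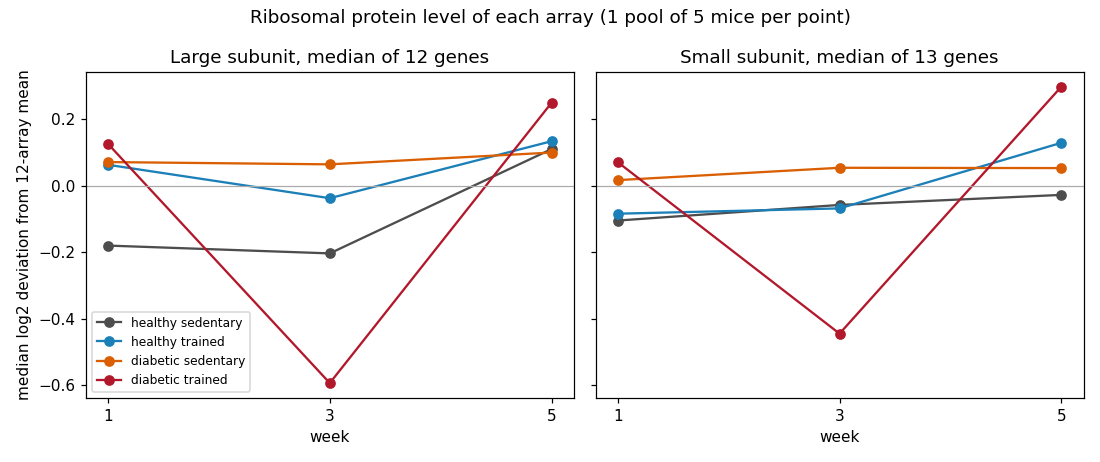
Median log2 deviation from the 12-array mean of the large (left) and small (right) subunit genes on each array, by week, with a line joining the 3 separate pools of a condition. Both panels show the diabetic trained array of week 3 lowest (-0.59 and -0.45) and the diabetic trained array of week 5 highest (0.25 and 0.30).

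Time showed more. At week 5, 20 of 27 genes lay higher than at week 1, with a median log2 difference of 0.14 against -0.10 over all probe sets tested (large 0.15, small 0.08). The median deviation from the 12-array mean differed by brightness. Other probe sets as bright as the 19 genes stood at -0.0001 to 0.07 at week 1 and 0.07 to 0.10 at week 5. The other dimmer ones stood at 0.02 to 0.06 and -0.13 to 0.004. The 19 bright members stood at -0.16 to 0.07 and 0.03 to 0.29. Rpl7a, a large subunit protein, rose. Its signals at week 1 were 606 and 641 in healthy hearts (sedentary, then trained) and 723 and 637 in diabetic hearts, and at week 5 they were 910 and 1005 and, in diabetic hearts, 853 and 1154. The means of the weeks were 652 ± 49.99 and 980 ± 132 (SD, n = 4 each), a difference of 0.58 (SE 0.17, limma adjusted p = 0.0416, higher in 4 of 4 conditions). It was the single member probe set of 35 to pass, where 15.4% of all probe sets passed, so the count gives no sign of a change of its own in the members. Leaving out any 1 of 9 arrays of the 12, or centring each array on its own median, took the call from Rpl7a with adjusted p up to 0.153, and its difference stayed between 0.42 and 0.75.

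Several others came close. In limma 7 of 35 member probe sets had an unadjusted p under 0.05 for week 5, beside 32.6% of all probe sets. Rps7, Rps3a1 and Rps3 are small subunit proteins, the last with a further role in DNA repair. Rps7 stood at 0.48 (SE 0.16, adjusted p = 0.0640), Rps3a1 at 0.41 (SE 0.15, adjusted p = 0.0790) and Rps3 at 0.47 (SE 0.17, adjusted p = 0.0865), each higher in 4 of 4 conditions. Rps7 lay between 998 and 1058 at week 1 and between 1283 and 1779 at week 5. For Rps3a1 the ranges were 1118 to 1343 and 1432 to 2015, and for Rps3 they were 771 to 1028 and 1151 to 1440. How often weeks kept apart like this among all probe sets was not counted. In the opposite direction the second Rps28 probe set stood at -0.48 (SE 0.15, adjusted p = 0.0532), with 1054 ± 171 at week 1 and 758 ± 149 at week 5 (n = 4 each), while its brightest probe set read -0.17 (SE 0.14). Rps27, a zinc-finger protein of the small subunit, stood at -0.38 (SE 0.16, adjusted p = 0.117) and Rpl41 at -0.29 (SE 0.15, adjusted p = 0.191). The second Rps28 probe set, Rps27 and Rpl41 were each lower in 4 of 4 conditions. Rpl38 was also among those of smallest p, but its week 5 signals, 5.4 to 12.3, lay within the control signal and its difference is not given.

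**Figure D5:**
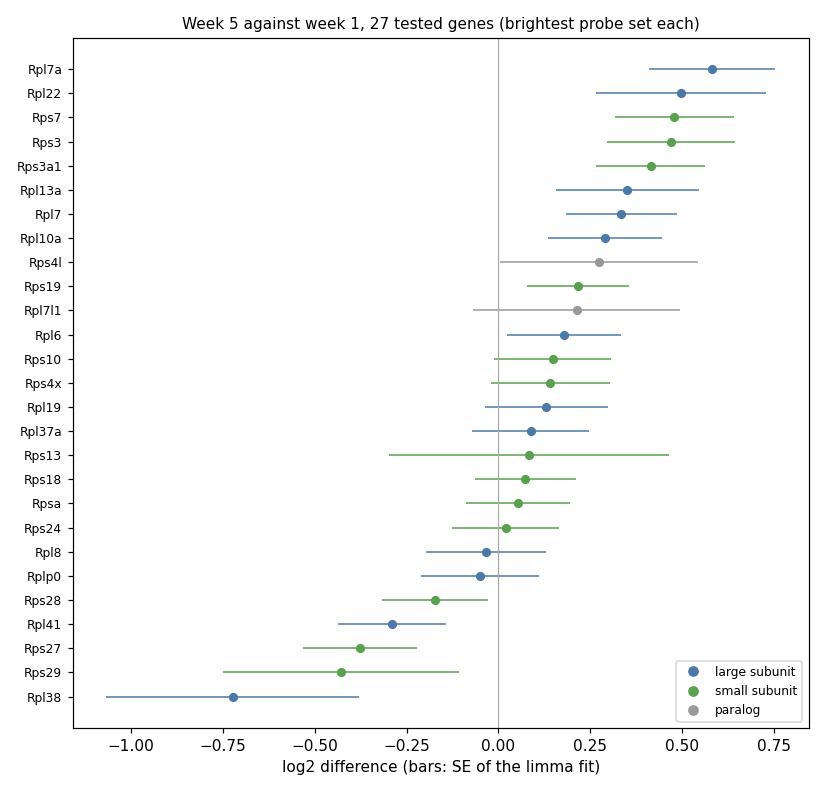
Log2 difference of week 5 against week 1 for the 27 tested genes with the SE of the fit, coloured by subunit. Rpl7a is highest at 0.58, 20 of 27 lie above 0, and the lowest point is Rpl38, whose week 5 signals lie within those of the control probe sets.

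Without the diabetic trained array of week 3 these week 5 differences were the same and their errors smaller, since that array belongs to neither week but adds to the spread. Then 8 of 34 member probe sets passed beside 32.3% of all: Rpl7a, Rpl7 (0.33), Rps7, Rps3a1 and Rps3 higher, and Rpl41, Rps27 and the second Rps28 probe set lower. The 18S ribosomal RNA control spots, a measure of ribosomal RNA carried into the labelled sample, moved with week too. The 3′ spot read 1395 to 3809 at week 5 against 80.9 to 439 at week 1. The actin 3′ to 5′ ratio was 2.11 to 2.52 against 1.70 to 2.46, ranges that overlap. The Gapdh 3′ to 5′ ratio went the other way, 1.04 to 1.19 against 1.11 to 1.25, also with overlap. In all but the trained pair of week 3, which holds the aberrant array, the 18S 3′ spot was lower in diabetic than healthy hearts. At weeks 1, 3 and 5 it read 322, 1141 and 3809 in healthy sedentary hearts and 80.9, 132 and 1395 in diabetic sedentary ones. In trained hearts it read 439, 112.5 and 2835.5 in healthy and 88.4, 530.5 and 2084 in diabetic mice. The part of these controls in the week 5 and the diabetes differences was not tested. Week 5 cannot be told apart from its chip lot and scan day. Week 3 against week 1 had a median of -0.09 (8 of 27 higher), or 0.02 (19 of 27) without the diabetic trained array of week 3. Over all probe sets tested these medians were 0.001 and -0.002. In limma 0 member probe sets and 0% of all passed there, with 3 members at an unadjusted p under 0.05, among them Rplp0 at -0.45 (SE 0.16), lower in 4 of 4 conditions, and Rpl7l1 at 0.68 (SE 0.28), higher in 4 of 4. Without the diabetic trained array of week 3 these were -0.25 and 0.39. Weeks 1 and 3 were scanned on different days, and that array on a day of its own, so week 3 cannot be told apart from scan day either.

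The diabetic trained array of week 3 was then set against the mean of the other 3 arrays of its week, 1 array against 3 and without a test. Of the 19 bright genes 17 were lower, with a median log2 difference of -0.47 (large -0.64, small -0.45). Rpl19 was at 780 against 1183 to 1439 on the others (-0.73), Rpl8 at 593 against 775 to 1160 (-0.67), Rpl6 at 448 against 687 to 730 (-0.67) and Rps3 at 586 against 823 to 1028 (-0.66). Rpl37a (0.03) and Rps19 (0.09) were the 2 that were not lower. Probe sets of other genes did alike: of 668 other probe sets as bright, 588 were lower, with a median of -0.45.

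Of the 8 dimmer tested genes, all under 100, 4 were higher on this array and 4 lower (median 0.25). Of 6746 other tested probe sets under 240, a set that reaches above that line, 3403 were higher and 3343 lower (median 0.01). Over all 28 member probe sets under the brightness line, which include the untested ones near background, 20 were higher, with a median of 0.80. Rpl32, a large subunit protein, read 211 against 6.4 to 13.2 on the other arrays of the week, and Rpl39l, a paralog known from testis, 40.3 against 1.9 to 9.5. Rps27l, a relative of Rps27, read 22.5 against 2.2 to 9, and Rpl39 21.2 against 5.3 to 6.5. For these 4 genes the other arrays read within the control signal of up to 13.8, so no fold is given. Rps4l was among 6 that were lower, at 15.6 against 45.4 to 54.3 (-1.68).

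Smaller shifts of the bright genes as a group were seen on other arrays. On the healthy sedentary array of week 1, 19 of 19 were lower than on the other 3 arrays of that week, with a median of -0.16 where the other probe sets as bright had -0.03. On the diabetic trained array of week 5, 17 of 19 were higher than on its 3 partners (0.23, other bright probe sets 0.02). On the diabetic sedentary array of week 3, 18 of 19 were higher (0.32, other bright probe sets 0.16), a contrast that has the aberrant array among its partners.

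The bright genes followed each other from array to array. Over the 171 pairs of the 19 genes the median Pearson correlation of log2 signals was 0.72 across 12 arrays, and it was 0.49 without the diabetic trained array of week 3. For the 668 other probe sets as bright the medians were 0.25 and 0.03. Pairs of a large with a small subunit gene had 0.74 and 0.49, pairs within the small subunit 0.72 and 0.57, and pairs within the large subunit 0.68 and 0.30. Without that array 3 genes stood outside: Rpl41 had a median correlation of -0.24 with the other 18, Rps28 of -0.11 and Rpl37a of 0.15, while Rpl10a (0.72), Rps3a1 (0.72) and Rps3 (0.68) were among the closest to the rest. These values describe 11 or 12 arrays that share a scaling, a lot and a day in groups.

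The steadiest tested genes over the 12 arrays were Rps18, Rps28, Rpsa and Rps24, with an SD of log2 signal between 0.17 and 0.18, and Rps18 held 1291 on the diabetic trained array of week 3 and 1614 to 2116 on the others. Without that array the order changed: Rps18 and Rpsa had 0.11, Rpl6 and Rps24 0.12 and Rps28 0.17. The most variable genes, Rpl32, Rpl39l, Rpl35a and Rps27l, with SDs from 0.74 to 1.52, were all untested and near background. Without the array of week 3 the SDs of Rpl39l, Rps27l, Rpl32 and Rpl35a were 0.50, 0.34, 0.78 and 0.89.

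Genes that act with the ribosome gave a background for the members. Of 9 tested elongation factors, the proteins that move the ribosome along, 0 passed for diabetes (median log2 difference -0.05), with Eef1a2, the form of muscle and neurons, at -0.48 (SE 0.17, adjusted p = 0.272) and Eef1d at 0.18 (SE 0.13). Of 33 initiation factors 0 passed (median 0.02), with Eif3m at 0.38 (SE 0.14) and Pabpc1, a poly(A)-binding protein, at -0.29 (SE 0.13). Of 43 genes of ribosome biogenesis 0 passed (median 0.01), with the nucleolar chaperone Npm1 at 0.34 (SE 0.12) and Bysl, a factor of small subunit assembly, at -0.54 (SE 0.20). Of 14 genes of TOR and S6 kinase signalling 0 passed (median 0.03), with Sesn1, a stress-induced inhibitor of TOR, at 0.65 (SE 0.14, adjusted p = 0.0685) and Eif4ebp1, a repressor of initiation, at 0.42 (SE 0.13, adjusted p = 0.190). In these 4 lists 1, 3, 4 and 2 genes had an unadjusted p under 0.05 in limma, beside 11.8% of all probe sets.

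At week 5 against week 1, 631 probe sets of all tested rose and 514 fell. Among initiation factors 6 rose and 1 fell (median 0.15): Eif1ax (0.97, SE 0.20), Eif3e (0.83), Eif5b (0.77), Eif4g3 (0.74), Eif3m (0.74) and Eif2s3y (0.62) were higher, and Eif2b2 (-0.66) was lower. Among TOR and S6 kinase genes 5 fell and 0 rose (median -0.37): Mknk1 (-1.13), Eif4ebp2 (-0.75), Tsc2 (-0.73), Mknk2 (-0.67) and Larp1 (-0.66), the protein that binds the pyrimidine tract of ribosomal protein messages. In ribosome biogenesis Npm1 rose (0.50, SE 0.14), and Polr1b, a subunit of RNA polymerase I, and Gar1, a protein of small nucleolar RNA complexes, fell (-1.27 and -0.77), with a median of 0.00. The elongation factors had a median of -0.05 and 0 past the threshold, with 2 at an unadjusted p under 0.05 in limma. With each array centred on its own median, an alternative chosen after the data had been seen, the median of all probe sets went from -0.10 to 0.07 and the calls over all of them to 659 higher and 135 lower. Initiation factors then had 6 higher and 0 lower (median 0.32), without Eif2b2. The TOR and S6 kinase genes had 0 higher and 1 lower, Eif4ebp2 at -0.58 (median -0.20), and under quantile normalization 4 lower. Ribosome biogenesis had 2 higher, Rrn3 and Gnl3 in place of Npm1, and 2 lower, Polr1b and Gar1, and a median of 0.17. The median of the elongation factors turned to 0.12. These calls stand beside the 15.4% of all probe sets and beside the same chip lot and scan day as those of the members.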

How the data were processed

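Signal intensities of an Affymetrix MG_U74Av2 array were deposited by the authors as linear values. Per the submitters' processing notes MAS5 was used, of unstated version and settings. Every array had a trimmed mean between 50.03 and 50.04, so a common scaling was applied before deposit. The experiment files were read for scan day, chip lot, module and comments alone. Signals under 4.1, the 20th percentile, were set to it, and log2 was taken. Condition plus week were modelled in limma 3.58.1 (R 4.3.3; eBayes with an intensity trend, 6 residual degrees of freedom) over the 7453 probe sets above the filter, with Benjamini-Hochberg adjustment over all of them within a comparison and a threshold of 0.05. The fit was tested on simulated data. The number of arrays limits the precision. Members, lists and tests were chosen with earlier results of these data known. Members were named if past the threshold, or drawn from the 4 of smallest p per direction, of highest or lowest signal or spread, or most shifted on the diabetic trained array of week 3; list genes if past the threshold or among the 2 of smallest p. Week was the block because trained and sedentary mice of a week were killed at the same time per the labels. Deviations from condition means correlated at 0.080 to 0.640 (median 0.27) between the 18 same-week pairs. Between the 36 different-week pairs they correlated at -0.45 to 0.25 (median -0.21). Deviations cancel within a condition, so the 2 sets of values are not independent. Arrays of a week also share a chip lot and scan day, apart from the diabetic trained array of week 3. The correlations thus cannot tell a pairing of mice from a batch. Sequences are from RefSeq. Alternatives varied the scaling, floor, filter, trend, array weights, block and arrays included.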

Additional observations from a re-analysis of the deposited data

Results flagged for a closer look

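Among the 6 healthy and the 6 diabetic arrays, 7 values lay apart from the other 5 of their group by more than the 95% limit of Dixon's test, which chance passes in about 1 of 20 groups. The number of groups searched is not stated, so the count of 7 is not set against chance. The diabetic trained array of week 3 gave 4 of them: a median deviation of the members of -0.45 (others 0.04 to 0.27), of the large subunit of -0.59 (others 0.06 to 0.25), a Rplp0 signal of 1106 (others 1935 to 2282) and a Rpl8 signal of 593 (others 983 to 1160). The healthy trained array of week 5 had a small subunit deviation of 0.13, where the other healthy arrays had -0.11 to -0.03. Rpl8 read 775 on the healthy sedentary array of week 3, below 926 to 993 on the other healthy arrays. Rpl41 read 5314 on the diabetic trained array of week 1, above 2999 to 3845 on the other diabetic arrays.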

How the results depend on the processing

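The count of member probe sets past the threshold was 0 for training, for both comparisons within 1 disease state, for diabetes in trained hearts, for the interaction and for week 3 against week 1 under every alternative run. For diabetes it was 1 under quantile normalization and under the stricter filter, 2 under array weights and 0 to 2 when 1 array was left out, 2 being without the diabetic trained array of week 3. For diabetes in sedentary hearts it was 1 under array weights and 0 to 1 with 1 array left out, the 1 again without that array. For week 5 against week 1 it was 0 with arrays centred on their median, without the filter and without the intensity trend, 3 with the stricter filter, 5 under quantile normalization, 7 without week 3, 13 under array weights and 0 to 8 with 1 array left out. Fitted with no replicate block, that is with the paired weeks ignored, the medians were the same (0.06 for diabetes), 0 members passed in the comparisons of conditions, and Rps19 had an adjusted p of 0.228; over all alternatives its diabetes difference was 0.47 to 0.61 with adjusted p of 0.00759 to 0.450.

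The median member difference of healthy trained against healthy sedentary hearts was 0.11 with arrays centred, 0.057 under quantile normalization and under array weights, 0.056 without week 5, 0.027 without the filter, 0.087 without shared or mixed probe set types, 0.10 as the mean of a gene's probe sets and 0.035 to 0.13 with 1 array left out. For diabetes in sedentary hearts it was 0.18 without week 5 and 0.046 to 0.24 with 1 array left out. For week 5 it was 0.31 with arrays centred and 0.024 to 0.23 with 1 array left out, lowest without the diabetic trained array of week 5. The large minus small value for diabetes was -0.064 to 0.026 with 1 array left out. In sedentary hearts it was -0.054 to 0.16 so, and -0.10 without week 3. In trained hearts it was -0.10 under quantile normalization, -0.038 with 16 added in place of the floor, -0.071 without the filter, -0.074 under array weights, -0.16 without week 1, -0.11 without week 5, -0.12 without shared or mixed types, -0.13 as the mean of a gene's probe sets and -0.097 to -0.025 with 1 array left out. For week 3 it was -0.073 to 0.011 so. Signals up to 13.8 lie within those of absent targets, which limits what the dimmest members can show, the dim Rps29 probe set and Rps13 among them.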
